A study of Mus musculus with 96 samples.

Results

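H3K27ac peaks that carried no H3K4me3 were examined in mouse embryonic stem cells (ESCs). A peak was chosen when it was called for H3K27ac in Rybp+/+ ESCs and shared not a single base pair with an H3K4me3 peak of the same cells. The peaks were thus chosen by called intervals alone, those of H3K27ac and H3K4me3 in Rybp+/+ ESCs, and these are given as a description. This rule kept 36348 of the 57642 Rybp+/+ H3K27ac peaks, or 63.1%. They are called enhancer-like peaks below, and the remaining 21294 are called H3K4me3-marked peaks. The name rests on the absence of H3K4me3 alone, since H3K4me1, the usual mark of enhancers, was not used here.

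ChIP-seq of H3K27ac, H3K4me3 and WDR5 came from Rybp-floxed R7.15 ESCs, with 2 samples merged into 1 list of peaks for each antibody and genotype. Rybp-/- ESCs had been given 5 µM 4-hydroxytamoxifen (4-OHT) for 4 days to delete Rybp, and Rybp+/+ ESCs had not been given it, so the deletion and the agent cannot be told apart. STAT3 was mapped in the same genotypes with 1 sample each. RING1B was mapped in R1 ESCs that carried the empty shRNA vector (shEV) or an shRNA against Stat3 (shStat3), with 1 sample each. Both factors were also mapped in cells with a doxycycline-inducible integration of Rybp and Stat3, without (DOX-) and with (DOX+) doxycycline, with 2 merged samples each. RNA-seq covered Rybp+/+ and Rybp-/- ESCs, R1 ESCs with shEV, shRybp or shWdr5, and the inducible cells without (NTC) and with (DOX) doxycycline, with 2 libraries in each group. All ESCs were grown in serum with LIF. Nothing in the labels places the replicates in separate cultures, so p-values measure the spread between these libraries, which may be technical.

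Active enhancers are stretches of regulatory DNA, often far from the gene they act on. The acetyltransferases p300 and CBP place H3K27ac at active enhancers and promoters, whereas H3K4me3 is concentrated at promoters and is placed there by COMPASS/MLL complexes, in which WDR5 is a scaffold subunit. RYBP is a subunit of noncanonical Polycomb repressive complex 1 (PRC1), and RING1B is the PRC1 ligase that ubiquitinates histone H2A. STAT3 is the transcription factor through which LIF keeps mouse ESCs self-renewing.

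The DNA at the summits of a few enhancer-like peaks is shown to make their base composition visible. Each sequence is 200 bp of the plus strand of mm9 around the summit, and capitals mark CpG dinucleotides. The strongest enhancer-like peak (nearest TSS, Igll1), the strongest that was absent from Rybp-/- ESCs (nearest TSS, Rbmxl2) and the strongest peak assigned to each of 4 pluripotency genes were chosen.
Igll1, chr16:16866120-16866319: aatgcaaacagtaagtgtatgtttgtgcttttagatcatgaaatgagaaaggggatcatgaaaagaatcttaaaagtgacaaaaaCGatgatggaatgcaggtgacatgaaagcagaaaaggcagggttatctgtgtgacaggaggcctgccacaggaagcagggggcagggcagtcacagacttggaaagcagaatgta
Rbmxl2, chr7:114351858-114352057: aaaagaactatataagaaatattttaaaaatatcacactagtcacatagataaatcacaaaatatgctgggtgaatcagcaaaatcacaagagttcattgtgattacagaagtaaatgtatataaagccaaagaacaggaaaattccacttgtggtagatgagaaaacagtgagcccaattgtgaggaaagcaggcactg
Pou5f1, chr17:35649509-35649708: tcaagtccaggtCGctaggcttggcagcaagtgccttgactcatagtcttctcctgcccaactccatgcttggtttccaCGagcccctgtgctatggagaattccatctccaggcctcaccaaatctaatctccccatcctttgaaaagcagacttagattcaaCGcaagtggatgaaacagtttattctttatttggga
Nanog, chr6:122640754-122640953: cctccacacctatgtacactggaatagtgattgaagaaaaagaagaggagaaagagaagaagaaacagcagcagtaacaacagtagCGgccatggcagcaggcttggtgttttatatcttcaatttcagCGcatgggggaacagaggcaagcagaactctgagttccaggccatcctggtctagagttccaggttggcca
Sox2, chr3:34634477-34634676: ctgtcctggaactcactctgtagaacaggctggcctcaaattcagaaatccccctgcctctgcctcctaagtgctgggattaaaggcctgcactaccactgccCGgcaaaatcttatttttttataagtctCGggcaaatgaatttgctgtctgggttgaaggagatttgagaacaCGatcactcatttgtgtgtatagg
Esrrb, chr12:87736753-87736952: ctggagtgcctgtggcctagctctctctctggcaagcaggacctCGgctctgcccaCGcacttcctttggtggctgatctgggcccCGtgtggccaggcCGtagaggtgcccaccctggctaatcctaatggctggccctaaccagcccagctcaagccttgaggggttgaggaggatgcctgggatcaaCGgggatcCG
The window at Rbmxl2 held no CpG, that at Igll1 held 1, that at Nanog 2, those at Pou5f1 and Sox2 3 each, and that at Esrrb 6. GC content was 33.0% at Rbmxl2, 43.5% at Igll1 and 63.5% at Esrrb.

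These windows differed widely, and the whole group was poor in CpG. Over 200 bp at the summit, enhancer-like peaks had a median GC content of 48.0% and a mean of 1.17 CpG per 100 bp, against 58.0% and 5.41 in H3K4me3-marked peaks. Windows 5 kb to the right of the enhancer-like peaks had 45.5% and 1.21. The contrast was found at either distance from promoters. Throughout, a transcription start site (TSS) is that of a protein-coding gene, and starts of other genes were not used. Within 2.5 kb of a TSS, enhancer-like peaks still had 1.34 CpG per 100 bp and H3K4me3-marked peaks 7.08. Beyond 2.5 kb the values were 1.15 and 2.75.

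Short motifs of 9 kinds were searched on both strands in these windows, and a match describes letters and not a bound site. The STAT motif TTCNNNGAA was found in 5.84% of enhancer-like peaks (95% Wilson interval 5.60 to 6.08), in 4.33% of H3K4me3-marked peaks and in 6.16% of the windows 5 kb away. The SOX motif ACAATG was found in 9.13%, 5.02% and 10.2%, and the octamer ATGCAAAT of OCT factors in 0.685%, 0.343% and 1.05%. The ESRRB motif CAAGGTCA was found in 1.54%, 0.958% and 1.47%, and the KLF motif GGGTGTGG in 2.02%, 2.06% and 1.79%. More frequent in H3K4me3-marked peaks were ETS CCGGAAG (0.971% against 4.12%), YY1 AAGATGGC (1.38% against 2.03%), NRF1 GCGCATGC (0.358% against 0.568%) and the cyclic AMP element TGACGTCA (0.121% against 0.136%), and the intervals of the last overlapped. The SOX and OCT letters were less frequent at enhancer-like summits than 5 kb away, where GC content was lower, with intervals that did not overlap, while the STAT intervals (5.60 to 6.08 and 5.92 to 6.42) overlapped. Among the windows printed above, that at Rbmxl2 alone held any of these motifs, the reverse complement CATTGT of the SOX motif. Intervals here and below cover counting error only, and neighbouring peaks are not independent of each other.

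Enhancer-like peaks were weaker, narrower and farther from a TSS than H3K4me3-marked peaks. Their median width was 506 bp, against 1297 bp, and their median fold enrichment over the local background was 3.67, against 7.13. The median -log10 q of the peaks was 5.45 against 23.2. They covered 29.5 Mb, and the less numerous H3K4me3-marked peaks covered 43.6 Mb. The median distance from the summit to the nearest TSS was 12056 bp for enhancer-like peaks and 695 bp for H3K4me3-marked peaks. Within 2.5 kb of a TSS lay 13.0% of the enhancer-like and 61.4% of the H3K4me3-marked peaks. Introns of protein-coding genes held 57.1% of the enhancer-like peaks, intergenic DNA 32.8% and exons 8.47%. Only 354 enhancer-like peaks belonged to the top 10% of all H3K27ac peaks by fold enrichment, which held 5411 H3K4me3-marked peaks.

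The strongest enhancer-like peaks were broad intergenic regions. The first, at chr16:16861232-16868277 near Igll1, which encodes a surrogate light chain of the pre-B-cell receptor, had a fold enrichment of 50.9. The next were found at chr8:34340199-34343782 (nearest TSS, Wrn), at chr7:38808632-38818162 (C80913) and at chr3:103007300-103016418 (Bcas2), with fold enrichments of 46.0, 42.6 and 40.4. The fifth, at chr15:7062219-7070711, lay 13116 bp upstream of Lifr, the gene of the LIF receptor, and had a fold enrichment of 38.2. All 5 were kept in Rybp-/- ESCs, where their peaks had fold enrichments of 41.2, 33.8, 33.7, 32.8 and 23.7. Fold enrichments of the genotypes come from separately called lists and are given side by side without a test.

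The fate of these peaks in Rybp-/- ESCs was examined next. No Rybp-/- H3K27ac peak overlapped 14485 of the 36348 enhancer-like peaks, a share of 39.9% (95% Wilson interval 39.3 to 40.4). Among H3K4me3-marked peaks 2046 of 21294 were lost, or 9.61%, and the difference was 30.2 percentage points (95% Newcombe interval 29.6 to 30.9). Because each list merges its replicates, the spread between replicates is not in these intervals, and no test between genotypes was possible. Lost means without a called peak, which does not show that the mark was absent. Of the base pairs in enhancer-like peaks, 58.7% were also covered by H3K27ac peaks in Rybp-/- ESCs, against 85.0% for H3K4me3-marked peaks.

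Loss was rare among strong peaks. All Rybp+/+ H3K27ac peaks were ranked by fold enrichment and split into 10 groups of equal number, and 56.2% of the enhancer-like peaks were lost in the weakest group, 60.2% in the second, 42.0% in the fifth, 15.0% in the seventh and 2.44% in the eighth. In the ninth group 0.0620% were lost, and in the strongest group none of 354. In the same order H3K4me3-marked peaks were lost at 35.0%, 37.3%, 23.7%, 7.77%, 1.11%, 0 and 0. At like fold enrichment the difference between both kinds of peaks was therefore 16.6 percentage points (95% interval 15.7 to 17.6), and at like width it was 19.1 (18.2 to 20.0).

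**Figure D1:**
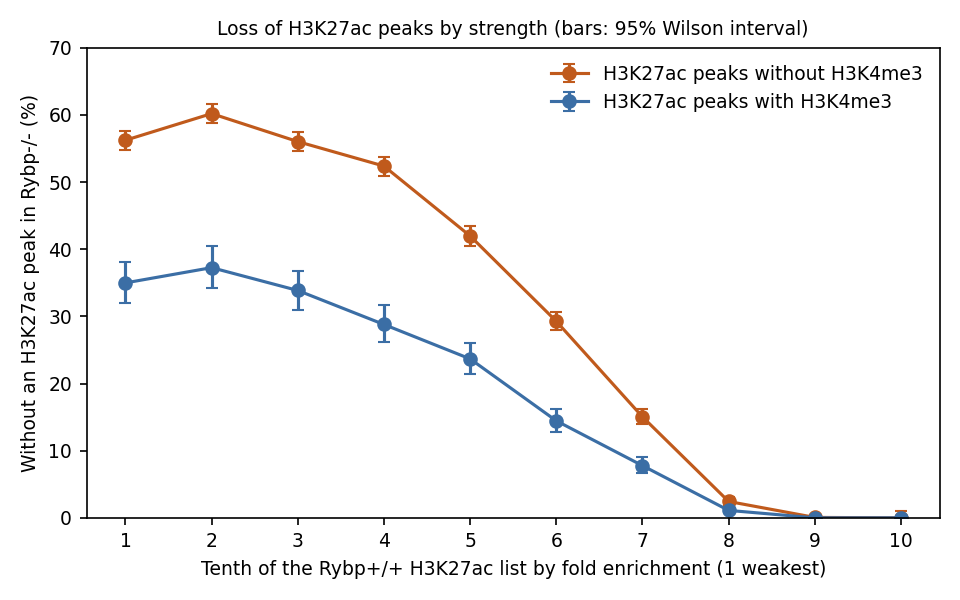
Share of Rybp+/+ H3K27ac peaks without a Rybp-/- H3K27ac peak (percent, y axis) in 10 equal groups ranked by fold enrichment (x axis, weakest to strongest), for enhancer-like and H3K4me3-marked peaks with 95% Wilson intervals. Enhancer-like peaks lie higher in the first to eighth groups, at 56.2% against 35.0% in the weakest. In the ninth group 1 of 1614 enhancer-like and 0 of 4150 H3K4me3-marked peaks were lost, and both shares are 0 in the strongest.

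The strongest peaks that were lost had moderate enrichment. The first, at chr7:114351656-114352244, lay close to the TSS of Rbmxl2. Its fold enrichment was 8.41, and 80.5% of the list ranked no higher. Peaks in introns of Abat, which encodes the enzyme that breaks down GABA, of Abcd3 and of Ubr4 had fold enrichments of 8.23, 8.05 and 7.32. An intergenic peak 45420 bp from Slc4a10 had 8.05.

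Both marks together gave each peak 1 of 4 fates. H3K27ac was kept without H3K4me3 at 21184 (58.3%), neither mark was called at 14395 (39.6%), both marks were called at 679 (1.87%) and H3K4me3 alone at 90 (0.248%). The 21863 kept peaks had a median percentile of fold enrichment of 49.98 among Rybp+/+ and 55.3 among Rybp-/- peaks. As the lists differ in length and peaks that fell below the calling threshold are not counted, no change in rank is read from these values. Of the kept enhancer-like peaks 43.1% stood at a lower percentile after deletion, and of the kept H3K4me3-marked peaks 44.5%.

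Peaks were gained as well as lost. By the same rule Rybp-/- ESCs had 40272 enhancer-like peaks, and 15059 of them (37.4%, 95% Wilson interval 36.9 to 37.9) overlapped no Rybp+/+ H3K27ac peak. The place of lost and new peaks differed. In introns of protein-coding genes 9502 enhancer-like peaks were lost and 7664 were new, or 0.807 new for each lost. In exons this ratio was 0.800. In intergenic DNA 3290 were lost and 5903 were new, a ratio of 1.79. The share lost was 45.8% in introns, 48.4% in exons and 27.6% in intergenic DNA. Fold enrichment alone, through the loss of all enhancer-like peaks in each of the 10 strength groups, would have given 41.9%, 44.7% and 35.2%.

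The loss also varied with distance to genes, and with the RNA level of the gene in whose intron or exon a peak lay. Within 2.5 kb of a TSS 46.5% were lost, from 2.5 to 10 kb 43.3%, from 10 to 50 kb 39.5%, from 50 to 100 kb 32.9% and beyond 100 kb 24.3%. The shares given by fold enrichment alone ran from 44.2% to 32.8%. Peaks inside protein-coding genes were split into 4 groups of like number by the level of the host gene in Rybp+/+ ESCs. Peaks inside several such genes were left out. Levels are in CPM, counts scaled to the size of each library, and host genes not tested were set to 0. In the lowest group, with host genes of up to 29.2 CPM, 35.0% were lost. In the other groups 48.7%, 51.6% and 49.6% were lost, while fold enrichment alone would have given 39.5% in the lowest group and 42.0%, 43.5% and 44.0% in the others. Across chromosomes the share lost lay between 32.1% on chromosome X and 43.4% on chromosome 5, where fold enrichment alone would have given 32.9% and 40.6%. Base composition at the summit did not separate them, with a median GC content of 48.0% in lost and in kept peaks and 1.19 and 1.17 CpG per 100 bp.

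**Figure D2:**
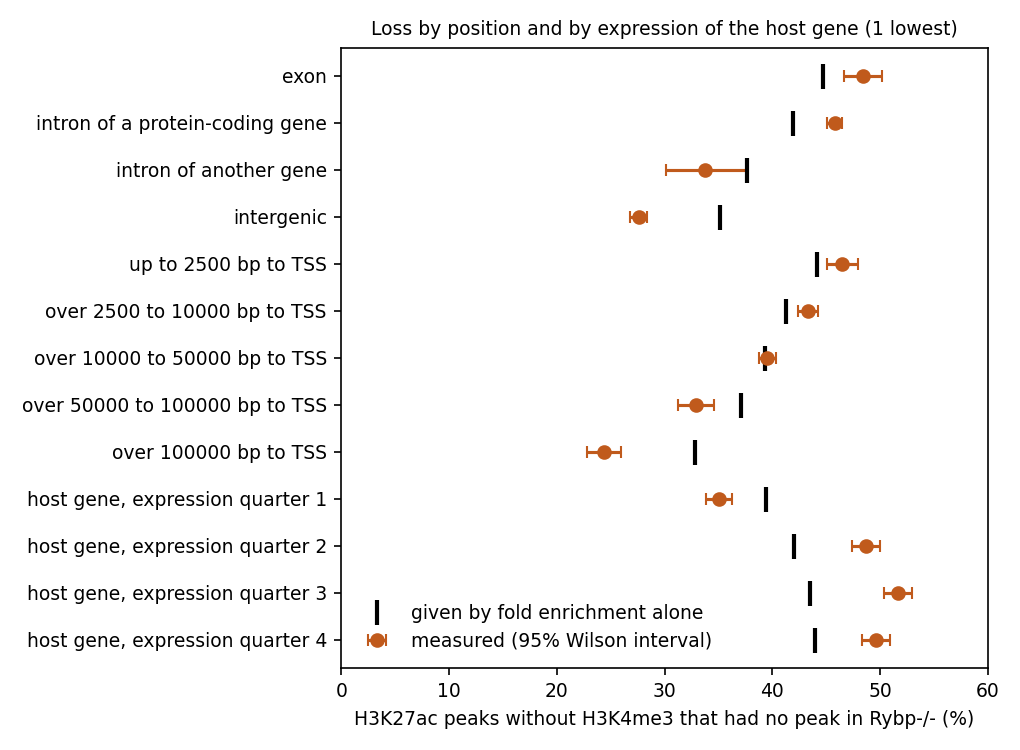
Share of enhancer-like peaks lost in Rybp-/- ESCs (percent) by place, distance to the nearest TSS and RNA level of the host gene, with 95% Wilson intervals and the share that fold enrichment alone would give. Intergenic peaks (27.6%) and peaks in lowly expressed or untested genes (35.0%) lie under, and intronic peaks (45.8%) above, the share from fold enrichment.

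Enhancer-like peaks often lay in clusters. When peaks were joined across the gap length customary for stitching super-enhancers, 12173 clusters were formed, of which 5163 held a single peak and 902 held 8 or more. Of the peaks in clusters of 8 or more 44.7% were lost, compared with 38.4% of single peaks, 33.8% of peaks in clusters of 2 or 3 and 40.8% of those in clusters of 4 to 7. Fold enrichment alone would have given 41.6%, 41.3%, 37.3% and 39.6%. The largest cluster, at chr13:44851081-45019807, held 64 enhancer-like peaks along Jarid2, which encodes a subunit of Polycomb repressive complex 2 (PRC2), and 31 of them were lost. A cluster along Tead1, a transcription factor of the Hippo pathway, held 58 peaks with 20 lost. At Ctbp2, a transcriptional corepressor, 13 of 56 were lost, and at Zap70 30 of 47.

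Few enhancer-like peaks gained H3K4me3 in Rybp-/- ESCs. By the rule none had it in Rybp+/+ ESCs, and 769 (2.12%, 95% Wilson interval 1.97 to 2.27) overlapped an H3K4me3 peak in Rybp-/- ESCs. In the other direction, 2060 of the 40272 enhancer-like peaks of Rybp-/- ESCs (5.12%) overlapped H3K4me3 in Rybp+/+ ESCs, a share 3.00 percentage points larger (95% interval 2.74 to 3.26). Gains were more frequent beside H3K4me3, at 7.39% of the 3979 peaks within 1 kb of a Rybp+/+ H3K4me3 peak and 1.24% of those more than 20 kb away. They were also more frequent where CpG was dense, at 4.62% of peaks with at least 3 CpG per 100 bp and 1.37% of those with less than 1. The strongest peaks with such a gain lay near C80913, Hs6st1, Fbxo36, Trappc6b and Mreg, and their new H3K4me3 peaks had fold enrichments of 4.07, 4.76, 2.69, 3.70 and 4.41. At the border of the rule, 216 enhancer-like peaks lay at most 100 bp from H3K4me3, and 44.0% of them were lost and 24.5% had H3K4me3 in Rybp-/- ESCs. The 292 H3K4me3-marked peaks that shared at most 100 bp with H3K4me3 had 42.1% and 31.8%.

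WDR5, STAT3 and RING1B were rarely called at enhancer-like peaks. WDR5 was found at 59 of them in Rybp+/+ ESCs (0.162%, 95% Wilson interval 0.126 to 0.209) and at 103 in Rybp-/- ESCs (0.283%), compared with 43.9% and 46.1% of H3K4me3-marked peaks. STAT3 was found at 31 (0.0853%) in Rybp+/+ and at 19 (0.0523%) in Rybp-/- ESCs, compared with 5.60% and 4.78%. RING1B was found at 120 (0.330%) in shEV and at 46 (0.127%) in shStat3 ESCs, compared with 36.6% and 31.3%. In the inducible cells RING1B was found at 141 (0.388%) in DOX- and at 61 (0.168%) in DOX+, compared with 45.6% and 31.2% of H3K4me3-marked peaks, with 17021 and 12864 entries in these lists. STAT3 was found at 26 (0.0715%) in DOX- and at 909 (2.501%) in DOX+, where the list of STAT3 peaks itself had 2816 and 30663 entries, and at 7.25% and 52.6% of H3K4me3-marked peaks. Any of these 10 lists reached 1215 enhancer-like peaks, or 3.34%. The contrast was smaller away from promoters and at like fold enrichment. Over all peaks the difference between enhancer-like and H3K4me3-marked peaks was -43.7 percentage points for WDR5, -36.2 for RING1B in shEV and -50.1 for STAT3 in DOX+. Among peaks more than 2.5 kb from a TSS, WDR5 was found at 0.152% of enhancer-like and 11.1% of H3K4me3-marked peaks, RING1B in shEV at 0.323% and 14.8%, and STAT3 in DOX+ at 2.46% and 29.4%. These differences were -10.9 (95% interval -11.6 to -10.3), -14.5 (-15.3 to -13.8) and -26.9 (-27.9 to -25.9). At like enrichment the differences were -20.5 (-21.3 to -19.8), -26.9 (-27.7 to -26.0) and -34.4 (-35.3 to -33.5).

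**Figure D3:**
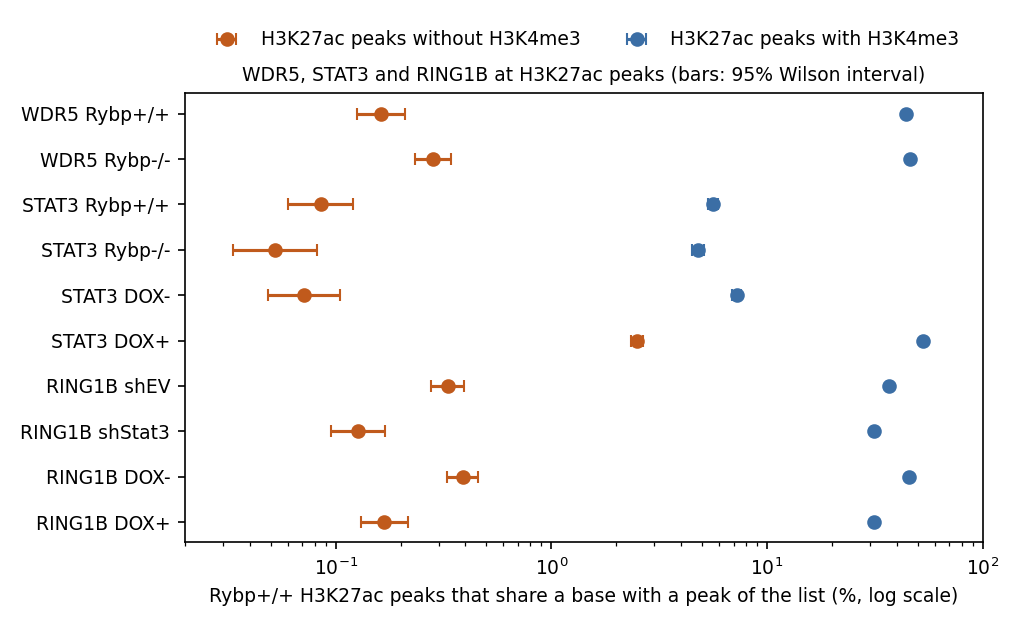
Share of enhancer-like and H3K4me3-marked peaks (percent, log axis) that overlap each of 10 lists of WDR5, STAT3 or RING1B peaks, with 95% Wilson intervals. Enhancer-like peaks stay under 0.5% in every list except STAT3 in DOX+ (2.501%), and H3K4me3-marked peaks lie between 4.78% and 52.6%.

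The sites with a factor were partly the same across genotypes for WDR5 and hardly so for STAT3. Of the 59 peaks with WDR5 in Rybp+/+ ESCs, 41 also had it in Rybp-/- ESCs, which is 69.5% of these and 39.8% of the 103. For STAT3 2 peaks were shared, 6.45% of the 31 and 10.5% of the 19. Both lay in exons, the stronger at chr11:101051014-101051550 in Cntnap1 with Ezh1, a PRC2 methyltransferase gene, as the nearest TSS, and the other in Brd3, which encodes a BET bromodomain protein. RING1B in shEV and in shStat3 shared 18 peaks, 15.0% of the 120 and 39.1% of the 46. Of the 120 peaks with RING1B in shEV, 63 had STAT3 in DOX+ (52.5%), which is 6.93% of the 909. In 8 of the 10 lists of factors the share of enhancer-like peaks lost had an interval under the 39.9% of all of them. It was 13.6% (8 of 59, 95% Wilson interval 7.03 to 24.5) at WDR5, 10.8% (13 of 120, 6.44 to 17.7) at RING1B in shEV and 16.5% (150 of 909, 14.2 to 19.1) at STAT3 in DOX+, where fold enrichment alone would have given 24.6%, 30.1% and 30.6%. Their median widths were 883, 594.5 and 815 bp, against 506 bp for all enhancer-like peaks, and the part of width in these shares was not tested. The interval at WDR5 ended just under the share from fold enrichment, and that at STAT3 in DOX-, with 3 of 26 lost (11.5%, 4.00 to 29.0), included the 23.1% that fold enrichment gives there. The other 2 lists were those of STAT3 in Rybp+/+ ESCs, with 10 of 31 lost (32.3%, 18.6 to 49.9), and in Rybp-/- ESCs, with 6 of 19 (31.6%, 15.4 to 54.0), where fold enrichment alone would have given 34.9% and 33.0%. H3K4me3 was gained at 16.9% of the peaks with WDR5, 23.3% of those with RING1B in shEV and 10.6% of those with STAT3 in DOX+, against 2.12% of all. It was gained at none of the 31 and 19 peaks with STAT3 in Rybp+/+ and Rybp-/- ESCs, which allows shares of up to 11.0% and 16.8% (95% Wilson), and at 1 of the 26 with STAT3 in DOX-.

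Named sites with WDR5 in Rybp+/+ ESCs were strong intergenic or intronic peaks. The strongest, at chr18:31725344-31730154, lay 41486 bp from B930094E09Rik. It had fold enrichments of 27.9 for H3K27ac and 3.29 for WDR5 in Rybp+/+ ESCs, and of 34.1 and 3.71 in Rybp-/- ESCs. The next lay 40315 bp from Elf3, an epithelial ETS factor, and had a fold enrichment of 23.2 for H3K27ac and 5.39 for WDR5. The same region had STAT3 in DOX+ with a fold enrichment of 5.82 and kept H3K27ac in Rybp-/- ESCs at 13.0, without WDR5. Intronic peaks of Rapgef1, Etl4 and Scpep1 had WDR5 fold enrichments of 3.25, 4.83 and 3.91, and that of Scpep1 was found in Rybp-/- ESCs too, at 3.67. The strongest peak with RING1B in shEV, at chr19:14907390-14912740, lay 238227 bp from Tle4, a Groucho family corepressor. Its H3K27ac fold enrichment was 37.3 in Rybp+/+ and 17.1 in Rybp-/- ESCs, and its RING1B fold enrichment was 4.51 in shEV and 3.39 in DOX+. RING1B in shEV was also found at peaks near Ctnnb1, which encodes beta-catenin, Ptprd, Lmx1a and Mab21l3.

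Peaks were assigned to the protein-coding gene with the nearest TSS within 100 kb, which was found for 33369 of them and gave 8583 genes at least 1. At least 3 were assigned to 4086 genes and 6 or more to 1721. Jarid2 had 73, followed by Etl4 and Msi2 with 64 each, Tns3 with 59 and Tead1 with 58. Nearness does not show that an enhancer acts on a gene.

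At the 25 genes of a pluripotency list, 23 had an enhancer-like peak. Of their 173 peaks 62 were lost in Rybp-/- ESCs (35.8%, 95% Wilson interval 29.1 to 43.2), a share whose interval includes that of all enhancer-like peaks, and 42 enhancer-like peaks were new. No lost peak on this list had a fold enrichment above 5.95. Klf5, a Krüppel-like factor of self-renewal, had the strongest, at chr14:99721290-99727135, with a fold enrichment of 21.1 in Rybp+/+ and 13.0 in Rybp-/- ESCs, and 3 of its 16 peaks were lost. The strongest of the 10 peaks at Nanog, a homeodomain factor, had 13.6 and 5.49, and 2 of the 10 were lost. At Mycn, a MYC family factor, the strongest had 12.1 and 6.52, and none of 5 was lost. At Sox2, the partner of OCT4, the strongest had 11.7 and 11.3, and 5 of 10 were lost. At Esrrb, an orphan nuclear receptor, it had 10.5 and 18.3, and 3 of 12 were lost. Pou5f1, which encodes OCT4, had 3 peaks with 2 lost, and the strongest had 5.21 and 3.68. Tet1, which encodes a 5-methylcytosine dioxygenase, had 24 peaks with 6 lost. Tbx3, a T-box factor, was the one gene of the list with WDR5 at an enhancer-like peak, and 4 of its 12 peaks had STAT3 in DOX+. Mycn was the one with RING1B in shEV, at 2 peaks.

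**Figure D4:**
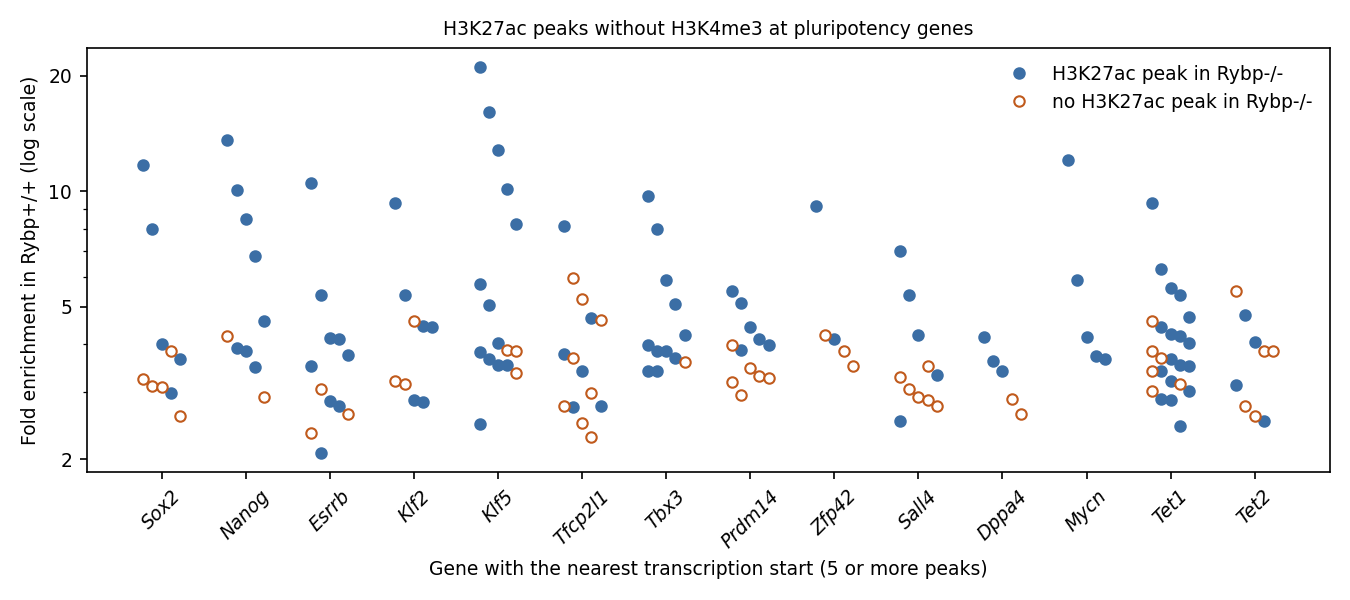
Fold enrichment of each enhancer-like peak (y axis, log scale) assigned to the 14 pluripotency genes with at least 5 of them, as called in Rybp+/+ ESCs, with kept and lost peaks marked apart. No lost peak lies above 5.95, and Klf5 holds the strongest peak at 21.1.

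The RNA of genes with many enhancer-like peaks was examined next. In bulk RNA a smaller number of cells and less RNA per cell cannot be told apart. Rybp had 110.4 and 110.2 CPM in Rybp+/+ and 24.8 and 25.0 in Rybp-/- libraries, a log2 fold change of -2.15. ESC identity of the controls was plain from Pou5f1, with 621.7 and 647.9 CPM. Of the 16955 genes tested in Rybp-/- against Rybp+/+ ESCs with edgeR's quasi-likelihood test, 22.7% were lower and 22.8% higher at an adjusted p under 0.05. Among genes without an enhancer-like peak 18.7% were lower and 26.0% higher, and with 6 or more 39.4% were lower and 22.9% higher. Genes with 1 to 2 peaks had 26.5% lower and 24.8% higher, and genes with 3 to 5 had 30.0% and 23.1%. The median level in Rybp+/+ libraries rose in the same order, from 6.21 to 21.9, 41.3 and 89.6 CPM, and its part in these shares was not tested. Changes were small, with a median log2 fold change of -0.05 in genes with 6 or more peaks.

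Among genes with 3 or more enhancer-like peaks, 1287 of 3774 were lower and 869 higher in Rybp-/- ESCs. The order turned among larger changes. With an absolute log2 fold change above 1, 19 of these genes (0.503%) were lower and 84 (2.23%) higher, where 1.24% of all genes tested were lower and 6.60% higher. The 3774 genes were divided by the fate of their peaks. Where at least 50% of the peaks were lost, 41.7% of 1574 genes were lower and 16.4% higher. Where fewer were lost, 30.6% of 1676 genes were lower and 26.6% higher, and where none was lost 22.5% of 524 were lower and 31.7% higher. The median control levels of these groups were 76.5, 55.6 and 22.7 CPM. Where new enhancer-like peaks outnumbered lost ones, 24.8% of 1038 genes were lower and 31.1% higher, and where lost ones outnumbered new ones 40.2% of 2145 were lower and 18.8% higher. The median control levels here were 38.0 and 74.5 CPM, and the part of level in these splits was not tested. Of the 620 genes with a peak that gained H3K4me3, whatever their number of peaks, 29.7% were lower and 30.6% higher.

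**Figure D5:**
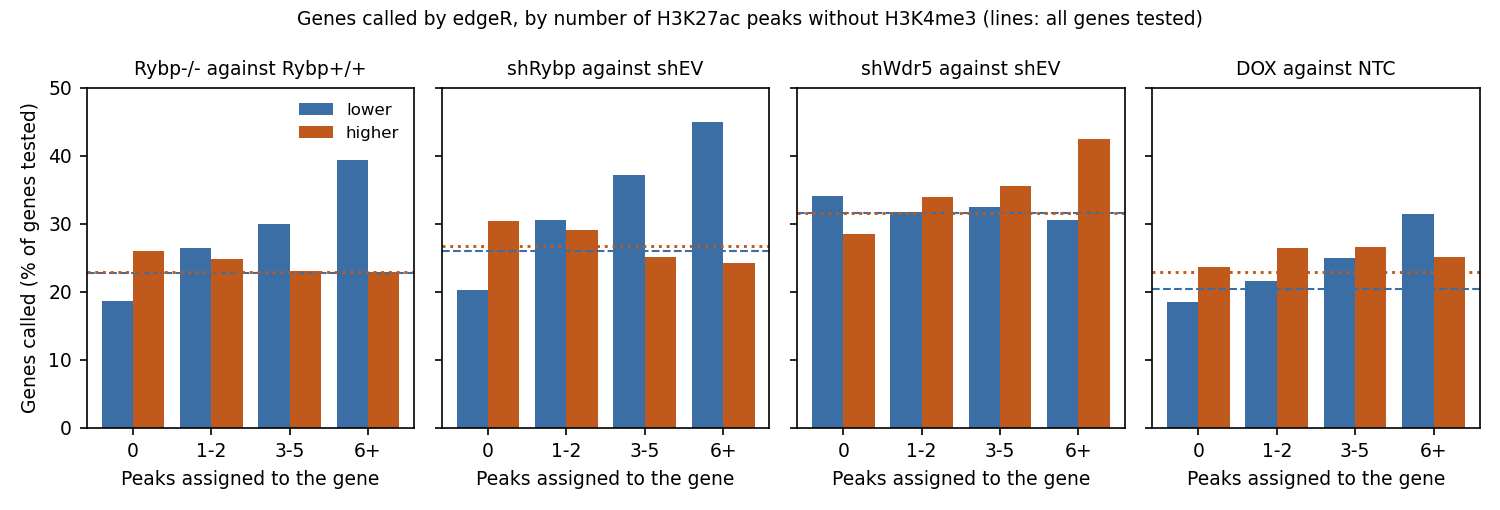
Share of tested genes that were lower or higher (percent, edgeR, adjusted p under 0.05) in 4 RNA-seq comparisons, by the number of enhancer-like peaks assigned to the gene, with horizontal lines at the shares over all genes tested. The share lower climbs with the number of peaks in Rybp-/- (18.7% to 39.4%) and shRybp (20.3% to 44.9%) ESCs, while in shWdr5 ESCs the share higher climbs (28.4% to 42.4%).

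Single genes illustrate these groups in Rybp-/- ESCs. Besides Rybp, the largest fall among called genes with at least 3 enhancer-like peaks and 5 CPM was that of Otx2. Otx2, a homeodomain factor of formative pluripotency, had 40.3 and 37.3 CPM in Rybp+/+ and 10.8 and 11.6 in Rybp-/- libraries. Its log2 fold change was -1.79 (SE 0.07, edgeR adjusted p = 2.18e-20). Otx2 had 8 enhancer-like peaks, all at least 27733 bp from its TSS. The strongest, at chr14:49318036-49323557, had a fold enrichment of 15.3 in Rybp+/+ and 13.9 in Rybp-/- ESCs, while 4 others were lost and none was new. Bahcc1 fell from 65.3 and 69.0 to 29.7 and 27.3 CPM with 4 of 5 peaks lost. Usp28, a deubiquitinase gene, fell from 336.3 and 336.0 to 164.2 and 167.9 CPM with 7 of 11 lost, and Enpp3 fell from 33.6 and 32.2 to 15.7 and 16.2 CPM with 5 of 7 lost. Mycn fell from 224.5 and 231.1 to 140.5 and 139.7 CPM although none of its 5 peaks was lost. Both libraries of each genotype lay clear of the other genotype for these genes.

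The 5 largest rises among called genes with at least 3 enhancer-like peaks and 5 CPM are given next. Crabp1, which encodes a retinoic acid binding protein, had 11.9 and 11.8 CPM in Rybp+/+ and 35.5 and 35.7 in Rybp-/- libraries (log2 fold change 1.59, SE 0.07), and none of its 3 peaks was lost. Id3, a BMP-responsive inhibitor of bHLH factors, rose from 30.9 and 31.9 to 83.5 and 83.0 CPM, with none of 5 lost and 3 new. Ddah1, Loxl1 and Cdc42ep1 rose by log2 fold changes of 1.43, 1.41 and 1.39, with 0, 2 and 3 of 3 peaks lost.

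Of the 23 pluripotency genes with an enhancer-like peak 7 were lower and 8 higher in Rybp-/- ESCs, where 22.7% and 22.8% of all genes tested were lower and higher. Over the whole list 8 of 25 were lower and 9 higher. Tbx3 rose from 157.8 and 165.7 to 277.1 and 275.9 CPM with 1 of 12 peaks lost. Tfcp2l1, a naive pluripotency factor, rose from 337.4 and 332.2 to 487.2 and 498.8 CPM although 8 of its 14 peaks were lost. Nanog rose from 400.0 and 404.6 to 556.8 and 566.7 CPM although the fold enrichment of its strongest peak was lower. Sox2 had 502.9 and 512.2 CPM against 480.9 and 468.1, a log2 fold change of -0.10 whose call was lost without Rybp-/- replicate 2. Esrrb had a log2 fold change of 0.09, and its call was lost without either Rybp-/- replicate. Pou5f1 had a log2 fold change of 0.03 that did not pass the test. In a list of LIF and STAT3 signalling genes, 11 of 14 had an enhancer-like peak, 32 of 77 peaks were lost (41.6%, 95% Wilson interval 31.2 to 52.7, which includes the 39.9% of all enhancer-like peaks), and of the 11 genes 2 were lower and 5 higher. Over the whole list 3 of 14 were lower and 6 higher. The lower genes with a peak encode the LIF receptor subunits. Lifr had 55.4 and 54.5 against 49.0 and 47.1 CPM with 6 of 12 peaks lost, and Il6st 75.9 and 73.5 against 63.3 and 63.0 CPM with 3 of 6 lost. Sgk1, which encodes a serum-induced kinase, rose by a log2 fold change of 0.63 with 5 of 8 lost.

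Genes of the enhancer and chromatin machinery had many enhancer-like peaks of their own. In a list of enhancer cofactors 12 of 13 genes had one, 39 of 83 peaks were lost (47.0%, 95% Wilson interval 36.6 to 57.6, which includes the 39.9% of all enhancer-like peaks), and of the 12 genes 6 were lower and 3 higher, against 22.7% and 22.8% of all genes tested. Over the whole list 7 of 13 were lower and 3 higher. Kdm1a, which encodes the demethylase LSD1, had 19 peaks with 10 lost and a log2 fold change of -0.27. In a list of Polycomb and Trithorax genes 12 of 14 had one, 85 of 182 peaks were lost (46.7%, 39.6 to 53.9, which also includes 39.9%), and of the 12 genes 6 were lower, the deleted Rybp among them, and 3 higher. Over the whole list 6 of 14 were lower and 4 higher. Jarid2 was higher with a log2 fold change of 0.22, with 34 of 73 peaks lost. Rybp itself had 28 peaks, of which 10 were lost, and 15 were new around it. In a list of formative and early lineage genes, 5 of the 15 that matched had a peak, 5 of 17 peaks were lost, and of these 5 genes Otx2 alone was called, as lower. Over the whole list 4 of 14 genes tested were lower and 4 higher.

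Genes were grouped in the same way after knockdown of Rybp in R1 ESCs, although H3K27ac of these cells is not analysed here. Rybp had 85.7 and 86.4 CPM in shEV and 35.8 and 36.6 in shRybp libraries. Of 16538 genes tested, 26.0% were lower and 26.8% higher. With 0, 1 to 2, 3 to 5 and 6 or more enhancer-like peaks, 20.3%, 30.6%, 37.1% and 44.9% were lower and 30.4%, 29.1%, 25.1% and 24.2% higher. The median level in shEV libraries rose in the same order, from 7.48 to 85.7 CPM. Among genes with 3 or more peaks, 38 (1.01%) were lower and 209 (5.56%) higher by an absolute log2 fold change above 1, against 1.22% and 11.4% of all genes tested. These genes with 3 or more peaks were also divided, at any size of change, by the fate of their peaks in Rybp-/- ESCs. Where at least 50% of the peaks were lost, 46.7% were lower and 18.6% higher, and where none was lost, 28.8% were lower and 34.7% higher. The median control levels of these groups were 76.3 and 25.0 CPM, and the part of level was not tested. Cdk2ap1 fell from 149.8 and 169.5 to 50.8 and 47.0 CPM, and Map2k1, which encodes the kinase MEK1, from 130.6 and 126.5 to 47.3 and 46.4 CPM. Ctdsp2, Sema6c and Mov10 fell by 1.499, 1.46 and 1.39 on the log2 scale. Thbs1, which encodes thrombospondin 1, rose from 0.405 and 0.734 to 21.4 and 22.6 CPM, and S100a6, Msln, Wnt7b and Gata3 rose by log2 fold changes of 3.04 to 3.44. Of 23 pluripotency genes with a peak 12 were lower and 5 higher, among them Tet1 with a log2 fold change of -0.74. Of the 12 Polycomb and Trithorax genes with a peak 11 were lower, Rybp as the target of the shRNA among them, and none higher. Over the whole list 12 of 14 were lower, and Yaf2, the paralogue of Rybp, which had no enhancer-like peak, was higher with a log2 fold change of 0.57.

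Knockdown of Wdr5 was measured against the same shEV libraries, so both knockdowns share their controls and are given side by side. Wdr5 had 349.8 and 342.9 CPM in shEV and 60.05 and 58.2 in shWdr5 libraries. Of 15143 genes tested, 31.5% were lower and 31.5% higher. With 0, 1 to 2, 3 to 5 and 6 or more enhancer-like peaks, 34.0%, 31.7%, 32.4% and 30.5% were lower and 28.4%, 33.8%, 35.5% and 42.4% higher. The median level in shEV libraries rose in the same order, from 9.76 to 81.1 CPM, and its part in these shares was not tested. With 3 or more peaks 1166 genes were lower and 1424 higher, but 2584 were lower and 2561 higher when a gene was given every peak within 50 kb. By an absolute log2 fold change above 1, 145 (3.93%) were lower and 293 (7.93%) higher, against 7.69% and 10.9% of all genes tested. Otx2 rose from 34.9 and 34.6 to 103.0 and 104.2 CPM (log2 fold change 1.58, SE 0.06). Plekhg1 rose from 9.03 and 7.85 to 91.6 and 88.9 CPM, and Bmp7, a BMP ligand gene, from 6.73 and 6.99 to 51.6 and 56.4 CPM. Ms4a10, Rin1 and Gprc5c rose by log2 fold changes of 5.82, 2.92 and 2.89. Scd2, which encodes a stearoyl-CoA desaturase, fell from 366.0 and 378.5 to 65.0 and 65.2 CPM, and Rpl7l1, Mov10 and Tuba4a fell by 2.49, 2.21 and 2.14 on the log2 scale. Of 23 pluripotency genes with a peak 15 were lower and 4 higher, and Klf5 had a log2 fold change of -0.93. In the list of enhancer cofactors 3 of 12 were lower and 8 higher, among them Kmt2d, which encodes an H3K4 methyltransferase of enhancers, with a log2 fold change of 0.64.

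The libraries labelled DOX showed no rise of Rybp and only a small one of Stat3. Rybp had 113.4 and 110.5 CPM in NTC and 101.8 and 99.8 in DOX libraries and was not called. Stat3 had 158.8 and 172.4 against 191.0 and 188.5, a log2 fold change of 0.20 (edgeR adjusted p = 0.0259). Whether reads of an integrated copy were counted on these genes was not tested, and the header of 1 of the 2 DOX columns begins with S5, which no label holds. Of 16291 genes tested, 20.4% were lower and 23.0% higher. Of genes with 6 or more enhancer-like peaks 31.4% were lower and 25.1% higher, and of genes without one 18.4% and 23.6%. The median levels of these groups in NTC libraries were 79.0 and 8.28 CPM, and the part of level was not tested. With 3 or more peaks 1033 genes were lower and 964 higher, but with every peak within 50 kb given to a gene 1810 were lower and 1937 higher. By an absolute log2 fold change above 1, 116 (3.11%) were lower and 217 (5.83%) higher, against 4.28% and 7.70% of all genes tested. Of 23 pluripotency genes with a peak 20 were lower and 1 higher in the libraries labelled DOX. Tet2, which encodes a 5-methylcytosine dioxygenase, fell from 82.8 and 94.7 to 21.8 and 23.0 CPM, and Spry4, a feedback inhibitor of receptor tyrosine kinase signalling, from 154.2 and 169.3 to 20.6 and 21.5 CPM. Arl4c rose from 14.0 and 14.3 to 315.9 and 315.3 CPM, and Prtg from 12.9 and 10.8 to 133.9 and 146.4 CPM. Csf1 and Mmp9 rose by log2 fold changes of 4.62 and 4.41.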

How the data were processed

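Per the methods of the study, ChIP-seq reads were trimmed with Trim Galore 0.6.6 and aligned to mm9 with Bowtie2 2.3.5.1, duplicates were removed with samtools 1.3.1, replicate alignments were merged, and peaks were called against input with MACS2 2.1.1 at an FDR of 0.01. The authors deposited a fold enrichment (a ratio over local background) and a -log10 q value for each peak. Peak calling for STAT3 and RING1B is not given in the sources used here, and the interval names of the STAT3 lists and of RING1B in the inducible cells read "sampled", so reads may have been subsampled. The depth of the lists is not given in the sources used here, and 3.27% of the enhancer-like peaks lie under a -log10 q of 2. For RNA-seq the authors aligned with STAR 2.6.1b and deposited raw counts from htseq-count 2.0.1 for 37620 genes. Counts on genes per library were 75496499 to 81049618 in Rybp+/+ and Rybp-/-, 38961268 to 52303725 in the shRybp table, 19731613 to 21500931 in the shWdr5 table and 50312058 to 53779354 in the inducible cells. Both shEV libraries stand in both knockdown tables, with 1.96 and 1.97 times as many counts in the shRybp table. The ratio varied between genes with an SD of 0.02 on the log2 scale, and why it differs from 1 is not given in the sources used here. Rows naming no gene held 13.7% to 57.4% and were left out.

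Peaks overlapped when they shared at least 1 bp. Positions were taken from GENCODE vM1 and sequences from NCBIM37, the build of mm9. A share given by fold enrichment alone applies the loss of all enhancer-like peaks in each strength group to the strength of the group described. Each table was fitted alone with edgeR 4.0.16 (TMM, filterByExpr, quasi-likelihood test, Benjamini-Hochberg adjustment over all genes tested, threshold 0.05), with DESeq2 1.42.0 as an alternative, in R 4.3.3 and Python 3.11.15. The procedures were tested on simulated data. The genes named are those of 5 lists with an enhancer-like peak, of which the text gives examples, and the 5 largest falls and 5 largest rises among called genes with at least 3 peaks and 5 CPM, of which some are not named. Peaks named are the 5 strongest of each kind. Replicate numbers did not pair the samples: deviations of same-numbered libraries correlated between -0.02 and 0.07. The header of 1 DOX column begins with S5, which no label holds, so it was given its group only. The rule, lists and tests were chosen with earlier results of these data known. The 3 further count tables of other experiments were not used here.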

Additional observations from a re-analysis of the deposited data

How the results depend on the processing

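The share of enhancer-like peaks lost (39.9%) was 41.9% among peaks with a -log10 q of at least 5, 44.9% when 50% of a peak had to overlap, 38.9% beyond 2.5 kb of a TSS and 43.3% with lists of equal length. The difference from H3K4me3-marked peaks (30.2 percentage points) was 31.7 with the q threshold, 33.5 with the 50% overlap, 31.9 with equal lists, and 16.6 and 19.1 at like fold enrichment and width. Beyond 2.5 kb it was 22.5, and with H3K4me3 kept at least 1 kb away 25.6, but there the enhancer-like peaks left out joined the comparison group. Against H3K4me3-marked peaks alone, a comparison chosen after seeing the data, it was 26.0 and 30.3. H3K4me3 gain (2.12%) was 1.63% with the 50% overlap, 1.47% with the 1 kb distance, 1.92% beyond 2.5 kb and 2.47% with equal lists. WDR5 (0.162%) was 0.0963% with the 50% overlap, 0.111% with the 1 kb distance and 0.0737% with equal lists of H3K27ac and H3K4me3 and the stronger 50% of WDR5 peaks together. STAT3 (0.0853%) was 0.0138% at a -log10 q of at least 5. RING1B (0.330%) was 0.101%, 0.239%, 0.263% and 0.0655% with the q threshold, the 50% overlap, the 1 kb distance and the last setting. The causes were not tested. Replicates are merged in these lists, so none could be left out.

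Genes called with 3 or more peaks numbered 2156 in Rybp-/-, 2449 in shRybp, 2590 in shWdr5 and 1997 in DOX libraries. An absolute log2 fold change above 1 left 103 (19 lower), 247 (38 lower), 438 (145 lower) and 333 (116 lower). Assigning every peak within 50 kb to a gene gave 4134, 4662, 5145 and 3747, because more genes have 3 peaks. With this assignment 2312, 2805, 2584 and 1810 were lower. Without 1 replicate the counts lay between 1711 and 2068, 2059 and 2387, 2263 and 2501, and 1720 and 1878. With the replicate block they were 2139, 2564 and 2714, and DOX could not be fitted with it. DESeq2 gave 1884, 2225, 2126 and 1903. No peak result turned in direction, and the larger changes and the 50 kb assignment turned the order of lower and higher genes as given above. No reads per peak are known, so a lost weak peak and a drop below the calling threshold cannot be told apart.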
